A study of Homo sapiens with 18 samples.

Results

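The genes described here are 48 that run mitosis and build the spindle: mitotic cyclins and their kinase CDK1, the mitotic kinases, checkpoint and anaphase regulators, kinetochore proteins, spindle-associated proteins, mitotic kinesins, cytokinesis proteins, and TOP2A, MKI67 and FOXM1. They were picked by gene symbol out of 20042 genes named on the array, with earlier results of these data known. Their counts below are therefore not those of a list blind to the data. Each gene is represented by its probe with the highest mean intensity. All 48 were on the array and all 48 were among the 15288 genes bright enough to be tested.

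The cells were HL-60, SKM1 and MOLM13, 3 established lines from human acute myeloid leukaemia, and their total RNA was read on Illumina BeadChips in 1 colour. There were 2 groups of 3 arrays for each line, 18 arrays in all. In the shBCAT1 groups the cells carried a short hairpin RNA against BCAT1, the cytosolic branched-chain amino acid transaminase, and in the shNT groups the control hairpin that the labels call NT. Both groups of every line had been transduced with lentivirus, and cells that took it up were sorted 48 h later. Only 1 BCAT1 hairpin was used, and effects of that hairpin on other genes cannot be told apart from those of BCAT1 loss. HL-60 was grown in 10% serum and SKM1 and MOLM13 in 20%, so that line and serum cannot be told apart in comparisons of HL-60 with the other lines. The labels number the replicates without saying that they were separate cultures, so p-values measure a spread between arrays that may be partly technical.

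Entry into mitosis is driven by CDK1 bound to cyclin A or B, which the CDC25 phosphatases switch on. Aurora and polo-like kinases then mature the centrosomes and assemble the spindle, motor proteins of the kinesin family sort its microtubules, and kinetochores hold each chromosome to them. The spindle checkpoint holds back the anaphase-promoting complex until every chromosome is attached, after which sister chromatids part and the cell divides. The genes for these proteins are read mainly in G2 and mitosis, under the control of FOXM1, MYBL2 and the DREAM and MuvB complexes, and their RNA is low in resting cells. In bulk RNA a smaller share of cells in G2 and mitosis and less RNA per such cell cannot be told apart.

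Values are probe intensities on a linear scale, and differences are on the log2 scale. The arrays were alike in brightness, with median intensities between 91.0 and 93.1, and their number limits the precision. BCAT1 itself was 10.2-fold lower with shBCAT1 in HL-60, 9.62-fold lower in SKM1 and 6.84-fold lower in MOLM13. Of 9 myeloid markers on the array, 7 to 9 lay above the median intensity of all probes in each group. Their summed intensity was 20520 with shBCAT1 and 18810 with shNT in HL-60, 15930 and 31730 in SKM1, and 38490 and 35150 in MOLM13. With shBCAT1, 4 of the 9 rose and 0 fell in HL-60 (median log2 difference 0.31), 1 rose and 2 fell in SKM1, and 1 rose and 1 fell in MOLM13. Among all genes tested, 10% rose and 8.87% fell in HL-60, 4.67% and 6.5% in SKM1, and 10.3% and 10.7% in MOLM13. The marker counts in SKM1 and MOLM13 are too small to be read against these shares. The summed intensity of 5 lymphoid markers was 613.5 with shBCAT1 and 783 with shNT in MOLM13, and between 482.3 and 550.9 in the groups of HL-60 and SKM1. For 5 erythroid markers it was 562.6 and 722.3 in MOLM13 and between 481.3 and 598.8 in HL-60 and SKM1. The sum for 6 epithelial and packaging cell markers was between 535.9 and 555.3 in HL-60 and MOLM13, and 1639 with shBCAT1 and 1898 with shNT in SKM1. The part of any of these marker differences in the results below was not tested.

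The promoters of these genes share sequence features, which are shown before the values. No promoter sequence was used to pick the genes, but genes of G2 and mitosis are textbook targets through the 2 elements below. The shares therefore describe the kind of gene picked and are not independent of that choice. The cell cycle genes homology region (CHR, letters TTTGAA) is the element through which DREAM and MuvB complexes bind late cell cycle promoters, and the box CCAAT is the element of the factor NF-Y. Both were searched on either strand in a window of 300 bases, from 250 before to 50 after the start of each gene, in the RefSeq annotation of build GRCh38.p14. RefSeq promoters were found for 42 of the 48 genes, 55 promoters in all; AURKA, TTK, UBE2C, BIRC5, TPX2 and FOXM1 had no entry in the table used. The CHR letters stood in 33 of the 55 promoters (60%), against 15.2% of all 35116 promoters in the table. CCAAT stood in 38 of 55 (69.1%), against 34.6%, and both together in 25 (45.5%), against 5.9%. The 2 motifs overlapped at 1 place in these promoters. In a comparison list of E2F and DNA replication genes, 2 of 41 promoters held the CHR letters (4.88%) and 23 held CCAAT (56.1%), and of 11 promoters of the MCM helicase family 0 held the CHR letters and 8 held CCAAT. A match is a run of letters and does not show that a factor binds there.

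**Figure D1:**
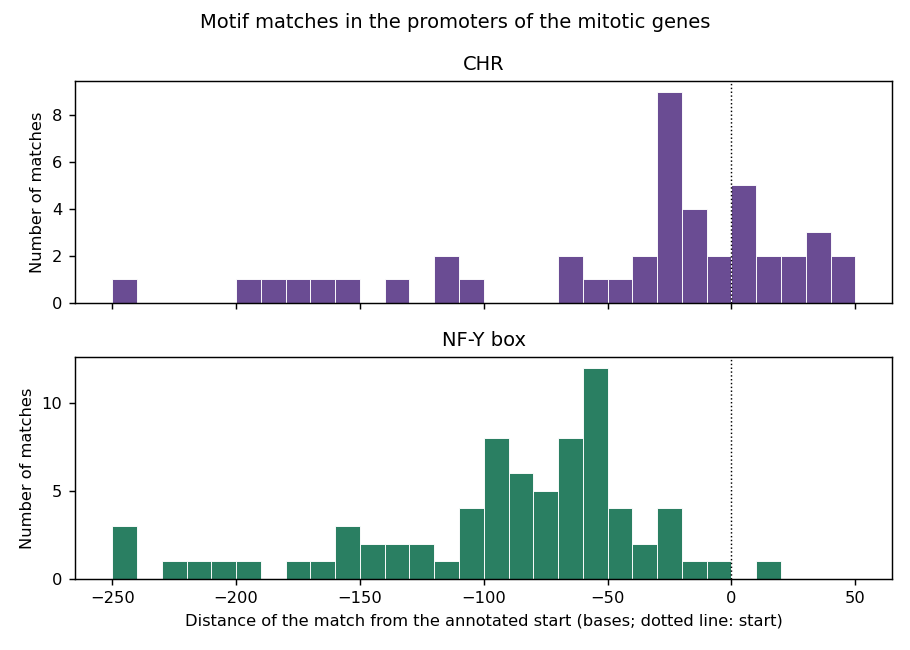
Matches to the CHR letters (upper panel, 45 matches) and to the NF-Y box (lower panel, 75 matches) in the promoters of the mitotic genes, by distance in bases from the annotated start. The bars count matches in steps along the window. Matches are counted per promoter, so a site shared by overlapping promoters of a gene, as in CDC25C or ECT2, counts more than once at different distances. Of the 45 CHR matches, 32 lay within 50 bases of the start, with a median position of -26. The median position of the NF-Y box was -79.

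Stretches of 150 bases, from 120 before to 30 after the start, are given for 5 genes with both motifs and for CKAP2. CKAP2 was picked by its response, as the 1 gene with a MOLM13 difference above 0. Both motifs stood together in 25 promoters, so holding them does not explain why these 5 were printed. All 5 fell in MOLM13. CENPA and ECT2 also hold both motifs and did not pass there (limma, adjusted p = 0.255 and 0.191). Under other settings CENPA did pass there with the mean of its probes (adjusted p = 0.0332) and ECT2 with array weights (adjusted p = 0.0375). The printed stretches are therefore not a comparison of genes with and without the motifs. They are read 5′ to 3′ on the strand of the gene, and capitals mark matches to TTTGAA or CCAAT in either orientation, so that TTCAAA and ATTGG are the same motifs on the other strand. The stretches are, in GRCh38.p14 coordinates, chr6:33391703-33391852 on the plus strand for KIFC1, chr10:92593010-92593159 on the plus strand for KIF11 and chr15:90994506-90994655 on the minus strand for PRC1. For PLK1 the stretch is chr16:23678769-23678918 on the plus strand, for CCNB2 chr15:59105026-59105175 on the plus strand and for CKAP2 chr13:52455868-52456017 on the plus strand. The CKAP2 stretch holds no match to either set of letters, which says only that they are not in this window.
KIFC1: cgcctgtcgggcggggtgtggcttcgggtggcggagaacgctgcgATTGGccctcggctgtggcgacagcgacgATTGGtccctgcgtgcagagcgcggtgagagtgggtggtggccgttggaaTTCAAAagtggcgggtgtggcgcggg
KIF11: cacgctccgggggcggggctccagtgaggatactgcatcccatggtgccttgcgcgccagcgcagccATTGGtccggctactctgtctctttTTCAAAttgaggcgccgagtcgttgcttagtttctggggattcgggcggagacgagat
PRC1: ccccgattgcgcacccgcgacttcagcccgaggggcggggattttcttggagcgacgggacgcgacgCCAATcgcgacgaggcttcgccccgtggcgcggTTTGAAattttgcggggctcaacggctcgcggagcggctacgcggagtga
PLK1: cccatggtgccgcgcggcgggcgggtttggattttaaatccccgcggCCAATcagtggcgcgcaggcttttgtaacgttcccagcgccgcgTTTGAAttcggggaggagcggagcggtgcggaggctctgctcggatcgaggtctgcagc
CCNB2: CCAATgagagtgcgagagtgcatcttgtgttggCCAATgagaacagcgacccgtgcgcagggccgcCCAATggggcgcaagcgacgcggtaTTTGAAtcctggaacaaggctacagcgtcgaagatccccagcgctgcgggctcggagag
CKAP2: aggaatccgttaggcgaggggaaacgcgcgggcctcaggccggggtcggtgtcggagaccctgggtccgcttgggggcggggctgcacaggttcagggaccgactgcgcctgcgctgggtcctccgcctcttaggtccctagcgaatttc

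The joint level of the 48 genes differed between lines and hairpins. For each array, the median over the 48 genes of log2 intensity minus the mean of that gene over all arrays was taken. With shNT it was 0.15, 0.17 and 0.00 in HL-60, 0.27, 0.33 and 0.39 in SKM1, and -0.48, -0.19 and -0.13 in MOLM13. With shBCAT1 it was 0.41, 0.30 and 0.40 in HL-60, 0.32, 0.40 and 0.39 in SKM1, and -1.01, -0.87 and -0.79 in MOLM13. The shBCAT1 arrays of HL-60 all lay above its shNT arrays, those of MOLM13 all lay below theirs, and those of SKM1 overlapped theirs. The first replicate was the lowest of its group in MOLM13 with either hairpin. The MOLM13 shBCAT1 group had the lowest of the 6 group means in 45 of the 48 genes, against 21.1% of all genes tested. The highest group mean was that of HL-60 shBCAT1 in 23 genes, SKM1 shBCAT1 in 16, SKM1 shNT in 7 and HL-60 shNT in 2. Among all genes tested these shares were 19.3%, 15%, 14.9% and 21.4%.

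**Figure D2:**
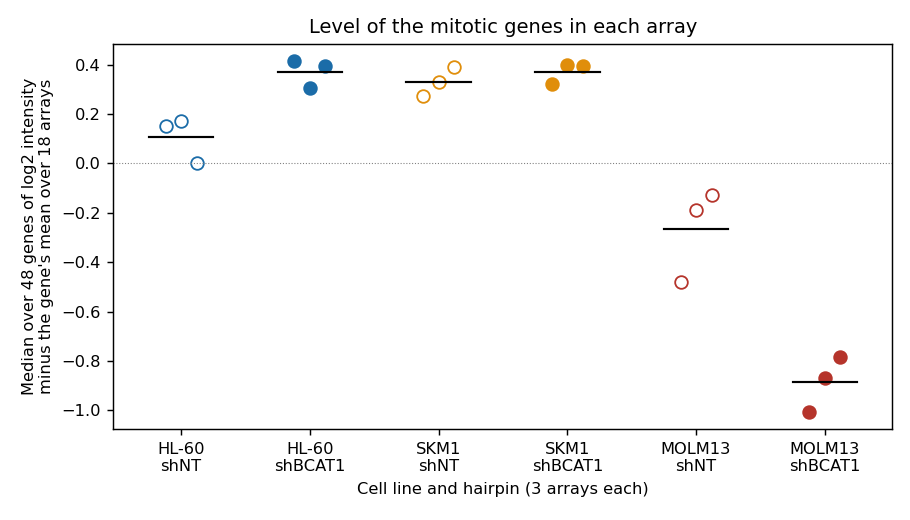
Level of the 48 mitotic genes in each array, as the median over genes of log2 intensity minus the mean of the gene over the 18 arrays (vertical axis), by cell line and hairpin (horizontal axis). Open points are shNT arrays, filled points shBCAT1 arrays and lines the mean of 3 arrays; the mean and SD were 0.37 ± 0.06 for HL-60 shBCAT1 and 0.11 ± 0.09 for HL-60 shNT, against -0.89 ± 0.11 and -0.27 ± 0.19 in MOLM13.

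In HL-60, mitotic genes rose with shBCAT1. Of the 48, 23 were higher at an adjusted p under 0.05 and 0 were lower, against 10% higher and 8.87% lower among the 15288 genes tested (limma, Benjamini-Hochberg adjustment over all genes tested). The median log2 difference, shBCAT1 minus shNT, was 0.28 against 0.00 over all genes tested, 43 of the 48 differences were above 0, and the range was -0.15 to 0.59. Of the 23 calls, 10 were lost under at least 1 alternative processing or on leaving out an array. The count was 16 to 23 on leaving out 1 array. NDC80 and KIF18A also passed in HL-60 with replicate blocks in every line (adjusted p = 0.00624 and 0.0201) or with the line fitted alone (adjusted p = 0.0208 and 0.0445). They passed as well with a replicate block in MOLM13 alone, added after seeing the data (adjusted p = 0.00954 and 0.0180). NEK2 and CENPA passed in HL-60 with the mean of their probes (adjusted p = 0.0264 and 0.0447). In 27 genes every shBCAT1 array lay above every shNT array, a pattern shown by 14.5% of all genes, and in 0 genes did every one lie below (13.9% of all genes).

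In MOLM13 the same hairpin went with a fall. Of the 48 genes, 40 were lower and 0 higher at the same threshold, against 10.7% lower and 10.3% higher among all genes tested. The median log2 difference was -0.59, with a range of -1.09 to 0.17, and 47 of the 48 differences were below 0. In 41 genes the shBCAT1 arrays all lay below the shNT arrays, against 15.5% of all genes. Standard errors of single genes were between 0.08 and 0.16 in every line.

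The responses of the lines differed by direct test. The MOLM13 response minus the HL-60 response was below 0 in all 48 genes, with a median of -0.90, and 44 were lower and 0 higher at an adjusted p under 0.05, against 8.02% lower and 6.57% higher among all genes. The genes that did not pass were CCNB1, BUB1B, CKAP2 and KIF22. An F test over the 3 responses passed for 42 of the 48, against 18% of all genes.

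Gene by gene, the rise in HL-60 and the fall in MOLM13 were set side by side. Of the 48, 20 passed the test in both directions, higher in HL-60 and lower in MOLM13, against 0.968% of all genes tested. These 20 were 87% of the genes that rose in HL-60, close to the 83.3% of all 48 that fell in MOLM13, and 50% of those that fell in MOLM13, close to the 47.9% of all 48 that rose in HL-60. They were CCNA2, PLK1, AURKA, BUB1, CDC20, PTTG1, CENPE, BIRC5, HMMR, DLGAP5, NUSAP1, SPAG5, KIF14, KIF20A, KIF23, KIFC1, PRC1, ANLN, MKI67 and FOXM1. Another 20 fell in MOLM13 and did not pass in HL-60, and 3 rose in HL-60 and did not pass in MOLM13: NUF2, CKAP2 and ECT2. The remaining 5, CCNB1, NEK2, BUB1B, CENPA and KIF22, passed in neither line. Under at least 1 other setting each of these 5, and ECT2, passed in MOLM13, and NEK2 and CENPA passed in HL-60. A gene that passes in 1 line and not in the other is not thereby shown to differ, and the direct test of the difference is given above.

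The fall was mostly larger than the rise. The fall in MOLM13 exceeded the HL-60 difference in size in 41 of the 48 genes. A difference above 0 in HL-60 together with one below 0 in MOLM13 was found in 42, against 3352 of all 15288 genes tested. Over the 48 genes the HL-60 and MOLM13 differences had a Pearson correlation of 0.21 and a Spearman correlation of 0.22, against 0.32 and 0.24 over all 15288 genes. The points are genes measured on the same arrays, so no p is given. The HL-60 and MOLM13 differences share no arrays. Across the 48 genes the mean log2 intensity had a correlation of 0.02 with the HL-60 difference and -0.25 with the MOLM13 difference. SKM1 lay between HL-60 and MOLM13 in 39 of the 48 genes. No share over all genes was taken for this count or for the 41 above.

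**Figure D3:**
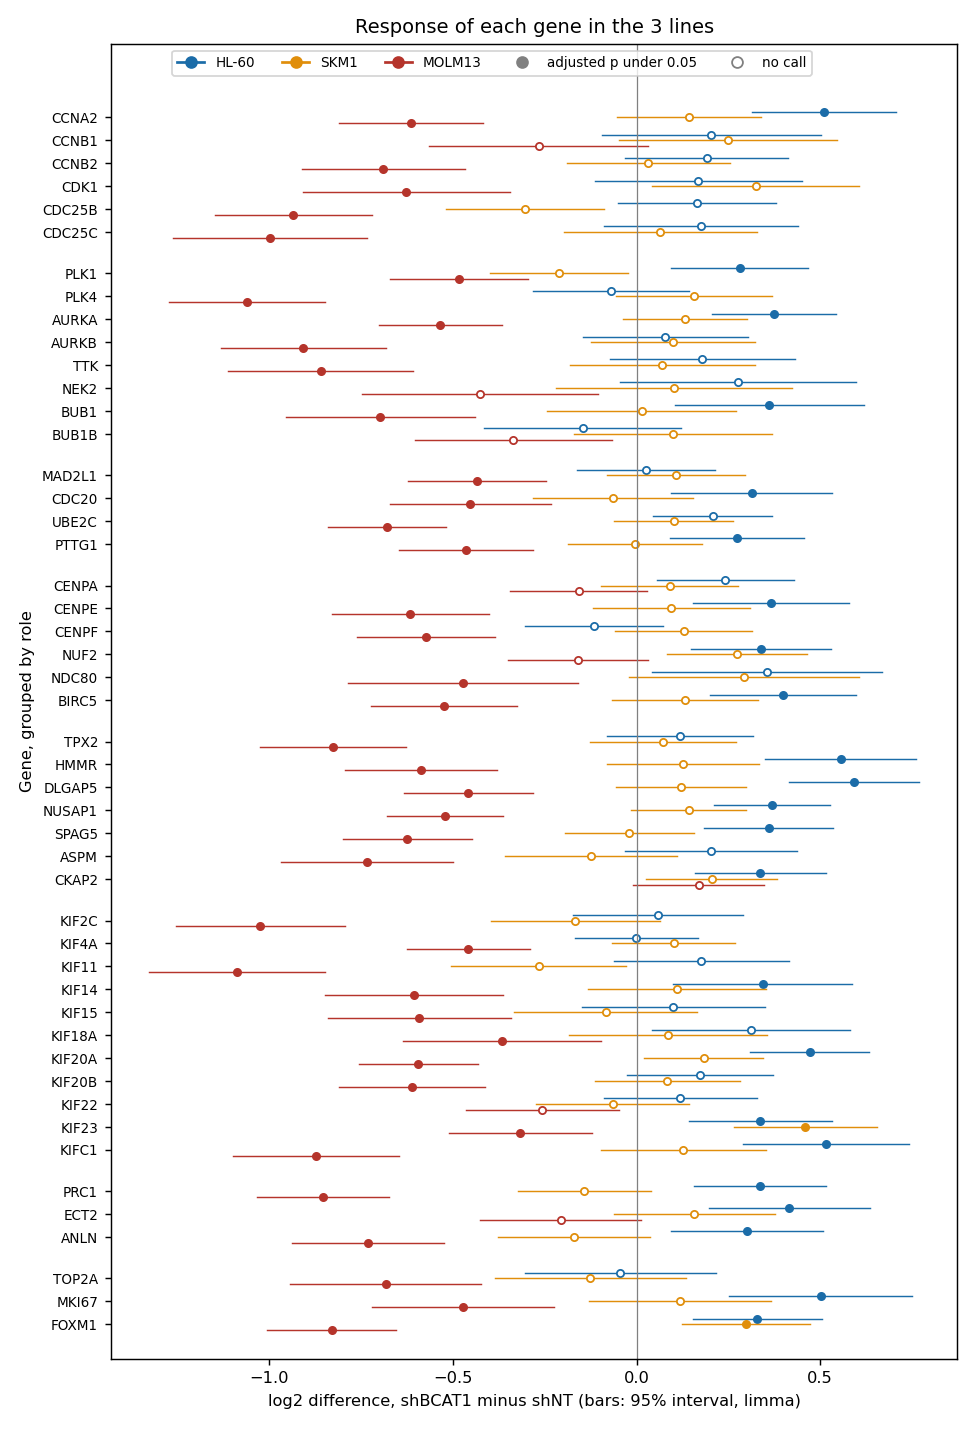
Response of each of the 48 genes in each line, as the log2 difference of shBCAT1 minus shNT (horizontal axis), with genes grouped by role (vertical axis). Points are limma estimates from 3 arrays against 3, bars their 95% intervals, and filled points have an adjusted p under 0.05; MOLM13 lies left of 0 in 47 genes and HL-60 right of 0 in 43.

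The cyclins and CDC25 phosphatases switch CDK1 on. Of the 6 genes in this group, 1 rose in HL-60, 5 fell in MOLM13 and the MOLM13 response was lower than the HL-60 response in 5, with median log2 differences of 0.18 in HL-60 and -0.66 in MOLM13. CCNA2, cyclin A2, which pairs with CDK2 and CDK1, had intensities of 1834, 2068 and 1692 with shBCAT1 and 1411, 1350.3 and 1165 with shNT in HL-60. MOLM13 arrays gave CCNA2 values of 601, 672 and 631 with shBCAT1 and 862, 1112 and 953 with shNT. In SKM1 cells CCNA2 read 1608, 1621 and 1622 with shBCAT1 and 1422, 1474 and 1498 with shNT. For CCNA2 the shBCAT1 arrays lay above all shNT arrays in HL-60 and SKM1 and lay below all of them in MOLM13. CCNA2 rose by 0.51 in HL-60 (SE 0.09, adjusted p = 0.000314) and fell by 0.61 in MOLM13 (SE 0.09, adjusted p = 3.35e-05) on the log2 scale, and the MOLM13 response minus that of HL-60 was -1.12 (adjusted p = 3.39e-06). CDK1 is the kinase that drives entry into mitosis. Its probe read 594, 663 and 487 with shBCAT1 and 505, 517 and 517 with shNT in HL-60. The CDK1 values of MOLM13 were 247, 306 and 384 with shBCAT1 and 385, 480.2 and 577 with shNT. For SKM1, CDK1 stood at 1209.9, 1218 and 1323 with shBCAT1 and 974, 1031 and 988 with shNT. For CDK1 the shBCAT1 arrays lay above all shNT arrays in SKM1, lay below all of them in MOLM13 and overlapped them in HL-60. CDK1 had a difference of 0.17 in HL-60 (SE 0.14, adjusted p = 0.463) on the log2 scale. In MOLM13 CDK1 fell by 0.63 (SE 0.14, adjusted p = 0.00137). CDK1 gave 0.32 in SKM1 (adjusted p = 0.151). For CDK1, MOLM13 minus HL-60 was -0.80 as a difference of log2 responses (adjusted p = 0.00584). CCNB1, cyclin B1, the main partner of CDK1 in mitosis, read 386, 298 and 354 in the HL-60 shBCAT1 arrays against 376, 286 and 248 with shNT. In MOLM13, CCNB1 read 204, 239.9 and 267 with shBCAT1 and 225, 305 and 332 with shNT. SKM1 gave CCNB1 values of 561, 633 and 611 with shBCAT1 and 446, 538 and 538 with shNT. For CCNB1 the shBCAT1 arrays lay above all shNT arrays in SKM1 and overlapped them in HL-60 and MOLM13. CCNB1, on the log2 scale, had a difference of 0.20 in HL-60 (SE 0.14, adjusted p = 0.390) and had a difference of -0.27 in MOLM13 (SE 0.14, adjusted p = 0.221). The CCNB1 gap between these responses, MOLM13 minus HL-60, was -0.47 (adjusted p = 0.137). With replicate blocks in all 3 lines CCNB1 passed in MOLM13 (adjusted p = 0.0423) and in the difference between the lines (adjusted p = 0.0166). With a replicate block in MOLM13 alone, where same-numbered arrays deviated together, it passed in neither (adjusted p = 0.122 and 0.0622). With array weights CCNB1 passed in MOLM13 (adjusted p = 0.0332) and in the difference between the lines (adjusted p = 0.0226).

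The CDC25 phosphatases had the largest falls of this group in MOLM13. CDC25B, a phosphatase that removes the inhibitory marks of CDK1, had intensities of 1813, 1483 and 2107 with shBCAT1 and 1723, 1413 and 1655 with shNT in HL-60. MOLM13 arrays gave CDC25B values of 655, 697 and 649 with shBCAT1 and 1161, 1386 and 1287 with shNT. In SKM1 cells CDC25B read 633, 657 and 679.7 with shBCAT1 and 763, 844 and 827 with shNT. For CDC25B the shBCAT1 arrays lay below all shNT arrays in MOLM13 and SKM1 and overlapped them in HL-60. CDC25B had a difference of 0.16 in HL-60 (SE 0.10, adjusted p = 0.325) and fell by 0.93 in MOLM13 (SE 0.10, adjusted p = 4.53e-07) on the log2 scale, and the MOLM13 response minus that of HL-60 was -1.10 (adjusted p = 1.42e-05). CDC25B gave -0.30 in SKM1 (adjusted p = 0.0619). CDC25C is a second phosphatase of CDK1. Its probe read 378, 348 and 368 with shBCAT1 and 316, 335 and 317 with shNT in HL-60. The CDC25C values of MOLM13 were 114, 139 and 161 with shBCAT1 and 207, 304 and 322 with shNT. For SKM1, CDC25C stood at 383, 349 and 322 with shBCAT1 and 331, 322 and 353 with shNT. For CDC25C the shBCAT1 arrays lay above all shNT arrays in HL-60, lay below all of them in MOLM13 and overlapped them in SKM1. CDC25C had a difference of 0.18 in HL-60 (SE 0.13, adjusted p = 0.406) on the log2 scale. In MOLM13 CDC25C fell by 1.00 (SE 0.13, adjusted p = 2.92e-06). For CDC25C, MOLM13 minus HL-60 was -1.17 as a difference of log2 responses (adjusted p = 7.1e-05). CCNB2, the other B-type cyclin, had a mean intensity of 1085 ± 95.1 (SD, n = 3) with shBCAT1 in MOLM13 against 1757 ± 251 with shNT, and fell by 0.69 on the log2 scale (adjusted p = 3.77e-05). Its HL-60 difference was 0.19 (adjusted p = 0.257).

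Among the 8 mitotic kinases, 3 rose in HL-60, 6 fell in MOLM13 and 7 had a lower response in MOLM13 than in HL-60. PLK1, the polo-like kinase of centrosome maturation, spindle assembly and cytokinesis, read 312, 247 and 304 in the HL-60 shBCAT1 arrays against 251, 237 and 219.8 with shNT. In MOLM13, PLK1 read 135, 134 and 149 with shBCAT1 and 198, 199.7 and 186 with shNT. SKM1 gave PLK1 values of 281, 284 and 255 with shBCAT1 and 305, 303 and 341 with shNT. For PLK1 the shBCAT1 arrays lay below all shNT arrays in MOLM13 and SKM1 and overlapped them in HL-60. PLK1, on the log2 scale, rose by 0.28 in HL-60 (SE 0.09, adjusted p = 0.0312) and fell by 0.48 in MOLM13 (SE 0.09, adjusted p = 0.000316). PLK1 gave -0.21 in SKM1 (adjusted p = 0.166). The PLK1 gap between these responses, MOLM13 minus HL-60, was -0.76 (adjusted p = 0.000187). The HL-60 call of PLK1 was lost without HL-60 shBCAT1 replicate 1 or 3 (adjusted p = 0.154 and 0.121) or shNT replicate 2 or 3 (adjusted p = 0.0650 and 0.133), and with the line fitted alone (adjusted p = 0.114). PLK4, the kinase that starts centriole duplication, had intensities of 701, 840.3 and 722 with shBCAT1 and 777, 725 and 873 with shNT in HL-60. MOLM13 arrays gave PLK4 values of 258, 278 and 291 with shBCAT1 and 487, 619 and 629.9 with shNT. In SKM1 cells PLK4 read 699, 781 and 769 with shBCAT1 and 609, 696 and 716 with shNT. For PLK4 the shBCAT1 arrays lay below all shNT arrays in MOLM13 and overlapped them in HL-60 and SKM1. PLK4 had a difference of -0.07 in HL-60 (SE 0.10, adjusted p = 0.721) and fell by 1.06 in MOLM13 (SE 0.10, adjusted p = 6.23e-08) on the log2 scale, and the MOLM13 response minus that of HL-60 was -0.99 (adjusted p = 4.28e-05). The PLK4 fall in MOLM13 was 2.09-fold, without a rise in HL-60. BUB1B is a pseudokinase-bearing checkpoint protein that restrains the anaphase-promoting complex. Its probe read 184, 140.3 and 164 with shBCAT1 and 140.2, 174 and 234 with shNT in HL-60. The BUB1B values of MOLM13 were 137, 149.6 and 153 with shBCAT1 and 174, 189.8 and 190.3 with shNT. For SKM1, BUB1B stood at 185, 229 and 191 with shBCAT1 and 180.3, 187 and 195 with shNT. For BUB1B the shBCAT1 arrays lay below all shNT arrays in MOLM13 and overlapped them in HL-60 and SKM1. BUB1B had a difference of -0.15 in HL-60 (SE 0.13, adjusted p = 0.513) on the log2 scale. In MOLM13 BUB1B had a difference of -0.34 (SE 0.13, adjusted p = 0.0726). It passed there with array weights (adjusted p = 0.019) or with the line fitted alone (adjusted p = 0.0202). For BUB1B, MOLM13 minus HL-60 was -0.19 as a difference of log2 responses (adjusted p = 0.567).

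AURKA, the centrosomal Aurora kinase, had means of 3053 ± 113 and 2361 ± 235 (SD, n = 3) with shBCAT1 and shNT in HL-60, and 1048 ± 52.4 and 1518 ± 47.2 in MOLM13. It rose by 0.37 on the log2 scale in HL-60 (adjusted p = 0.00152) and fell by 0.53 in MOLM13 (adjusted p = 2.77e-05). AURKB, the kinase of the chromosomal passenger complex, fell by 0.91 in MOLM13 (adjusted p = 1.19e-06) and had 0.08 in HL-60 (adjusted p = 0.702). The checkpoint kinase TTK likewise fell by 0.86 in MOLM13 (adjusted p = 1.13e-05), with 0.18 in HL-60 (adjusted p = 0.365). BUB1, a checkpoint kinase at the kinetochore, rose by 0.36 in HL-60 (adjusted p = 0.0428) and fell by 0.70 in MOLM13 (adjusted p = 0.000179). The BUB1 rise was lost without any 1 of the 6 HL-60 arrays (adjusted p between 0.0652 and 0.107), and without the filter on dim genes (adjusted p = 0.0501) or with normexp (adjusted p = 0.0534). NEK2, a centrosomal kinase, missed the threshold in HL-60 (0.28, adjusted p = 0.255) and in MOLM13 (-0.43, adjusted p = 0.0535). In MOLM13 it passed with a replicate block in that line (adjusted p = 0.0131) or in every line (adjusted p = 0.00476). Array weights (adjusted p = 0.00206), quantile normalization (adjusted p = 0.0473) and normexp (adjusted p = 0.0487) also made it pass there. So did a stricter filter on dim genes (adjusted p = 0.042). With the mean of its probes NEK2 passed in MOLM13 (adjusted p = 0.0165) and in HL-60 (adjusted p = 0.0264). Its responses differed between the lines by -0.70 (adjusted p = 0.0318). That NEK2 difference was lost without HL-60 shBCAT1 replicate 1 or 3 (adjusted p = 0.0950 and 0.0587), shNT replicate 2 or 3 (adjusted p = 0.0827 and 0.0517), MOLM13 shBCAT1 replicate 1 or 2 (adjusted p = 0.0776 and 0.0605) or shNT replicate 2 or 3 (adjusted p = 0.0833 and 0.107).

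All 4 checkpoint and anaphase regulators fell in MOLM13, 2 rose in HL-60, and all 4 had a lower response in MOLM13 than in HL-60. CDC20, the activator of the anaphase-promoting complex that the checkpoint inhibits, had means of 6952 ± 1123 and 5556 ± 489 (SD, n = 3) with shBCAT1 and shNT in HL-60, and 1901 ± 119 and 2603 ± 206 in MOLM13. CDC20 rose by 0.31 on the log2 scale in HL-60 (adjusted p = 0.0396) and fell by 0.45 in MOLM13 (adjusted p = 0.00275). The HL-60 rise of CDC20 was lost without HL-60 shBCAT1 replicate 1 or 3 (adjusted p = 0.144 and 0.208) or shNT replicate 2 or 3 (adjusted p = 0.101 and 0.156), and with the line fitted alone (adjusted p = 0.117), with normexp (adjusted p = 0.0534) or with quantile normalization (adjusted p = 0.0504). PTTG1, securin, which holds separase inactive, had means of 5198 ± 410.2 and 4297 ± 246 (SD, n = 3) with shBCAT1 and shNT in HL-60, and 2169 ± 166 and 2996 ± 250.1 in MOLM13. PTTG1 rose by 0.27 on the log2 scale in HL-60 (adjusted p = 0.0311) and fell by 0.47 in MOLM13 (adjusted p = 0.000356). The HL-60 rise of PTTG1 was lost without HL-60 shBCAT1 replicate 1 or 3 (adjusted p = 0.0902 and 0.126) or shNT replicate 1 or 2 (adjusted p = 0.0603 and 0.127), and with the line fitted alone (adjusted p = 0.0816). UBE2C, the ubiquitin-conjugating enzyme of the anaphase-promoting complex, fell by 0.68 in MOLM13 on the log2 scale (adjusted p = 6.87e-07), from 2648 ± 238 to 1649.9 ± 54.1. In HL-60 its arrays did not overlap, with shBCAT1 above, and its difference of 0.21 missed the threshold (adjusted p = 0.0668). The UBE2C probe was near the median of all probes in SKM1, at 103 ± 2.01 with shBCAT1 and 96.2 ± 6.86 with shNT. MAD2L1, the checkpoint protein that binds CDC20, fell by 0.43 in MOLM13 (adjusted p = 0.000973) and had 0.03 in HL-60 (adjusted p = 0.891). Its difference between the lines, -0.46 with an adjusted p of 0.0163, was lost without HL-60 shNT replicate 3 (adjusted p = 0.0526) or MOLM13 shNT replicate 2 (adjusted p = 0.0532).

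The 6 kinetochore and centromere genes gave 3 rises in HL-60 and 4 falls in MOLM13, and all 6 had a lower response in MOLM13 than in HL-60. CENPF, a large kinetochore protein that accumulates in G2, read 849.7, 736 and 826 in the HL-60 shBCAT1 arrays against 815, 852 and 948 with shNT. In MOLM13, CENPF read 241, 260.5 and 224 with shBCAT1 and 319, 405 and 359 with shNT. SKM1 gave CENPF values of 766, 831 and 833 with shBCAT1 and 736, 740.4 and 746 with shNT. For CENPF the shBCAT1 arrays lay above all shNT arrays in SKM1, lay below all of them in MOLM13 and overlapped them in HL-60. CENPF, on the log2 scale, had a difference of -0.12 in HL-60 (SE 0.09, adjusted p = 0.442) and fell by 0.57 in MOLM13 (SE 0.09, adjusted p = 4.47e-05). The CENPF gap between these responses, MOLM13 minus HL-60, was -0.46 (adjusted p = 0.0169). The CENPF difference between the lines was lost without MOLM13 shBCAT1 replicate 3 (adjusted p = 0.0502) or shNT replicate 2 (adjusted p = 0.0663). NUF2, a subunit of the NDC80 complex, which grips microtubules, had intensities of 160.1, 166 and 196 with shBCAT1 and 127, 151 and 134 with shNT in HL-60. MOLM13 arrays gave NUF2 values of 99.6, 96.7 and 113 with shBCAT1 and 112, 112 and 120.3 with shNT. In SKM1 cells NUF2 read 231, 269 and 249.99 with shBCAT1 and 196, 218 and 207 with shNT. For NUF2 the shBCAT1 arrays lay above all shNT arrays in HL-60 and SKM1 and overlapped them in MOLM13. NUF2 rose by 0.34 in HL-60 (SE 0.09, adjusted p = 0.0102) and had a difference of -0.16 in MOLM13 (SE 0.09, adjusted p = 0.260) on the log2 scale, and the MOLM13 response minus that of HL-60 was -0.50 (adjusted p = 0.0107). NUF2 gave 0.27 in SKM1 (adjusted p = 0.0595). The NUF2 rise in HL-60 was lost without HL-60 shBCAT1 replicate 3 (adjusted p = 0.0807) or shNT replicate 1 (adjusted p = 0.0565), and with the line fitted alone (adjusted p = 0.0505) or with the mean of its probes (adjusted p = 0.0958). NDC80 is the subunit that gives this complex its name. Its probe read 441, 450.4 and 516 with shBCAT1 and 374, 362 and 361 with shNT in HL-60. The NDC80 values of MOLM13 were 132, 172 and 208 with shBCAT1 and 173, 260.4 and 279 with shNT. For SKM1, NDC80 stood at 245, 226 and 276 with shBCAT1 and 173, 211 and 227 with shNT. For NDC80 the shBCAT1 arrays lay above all shNT arrays in HL-60 and overlapped them in MOLM13 and SKM1. NDC80 had a difference of 0.36 in HL-60 (SE 0.15, adjusted p = 0.113) on the log2 scale. In MOLM13 NDC80 fell by 0.47 (SE 0.15, adjusted p = 0.0269). NDC80 gave 0.29 in SKM1 (adjusted p = 0.285). For NDC80, MOLM13 minus HL-60 was -0.83 as a difference of log2 responses (adjusted p = 0.00970). The NDC80 fall in MOLM13 was lost without MOLM13 shBCAT1 replicate 1 or 2 (adjusted p = 0.207 and 0.0559) or shNT replicate 2 or 3 (adjusted p = 0.135 and 0.165), and with the line fitted alone (adjusted p = 0.121).

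BIRC5, survivin of the chromosomal passenger complex, rose by 0.40 on the log2 scale in HL-60 (adjusted p = 0.00386) and fell by 0.53 in MOLM13 (adjusted p = 0.000246). CENPE, the kinesin of the kinetochore, rose by 0.37 (adjusted p = 0.0128) and fell by 0.62 (adjusted p = 8.75e-05) in the same lines. The CENPE rise was lost without HL-60 shBCAT1 replicate 3 (adjusted p = 0.0888) or shNT replicate 3 (adjusted p = 0.0682). CENPA, the histone H3 variant of centromeres, had 0.24 in HL-60 (adjusted p = 0.0645) and -0.16 in MOLM13 (adjusted p = 0.255), with arrays that did not overlap in either line. With the mean of its probes CENPA passed in HL-60 (adjusted p = 0.0447) and in MOLM13 (adjusted p = 0.0332). A stricter filter on dim genes also made it pass in HL-60 (adjusted p = 0.0493). Its difference between the lines, -0.40 with an adjusted p of 0.0361, was lost without HL-60 shBCAT1 replicate 1 or 2 (adjusted p = 0.0788 and 0.0711), shNT replicate 1 or 3 (adjusted p = 0.0677 and 0.0704), MOLM13 shBCAT1 replicate 2 (adjusted p = 0.0897) or shNT replicate 2 (adjusted p = 0.111).

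Of the 7 spindle-associated proteins, 5 rose in HL-60 and 6 fell in MOLM13, and 6 had a lower response in MOLM13 than in HL-60. The 2 largest rises in HL-60 among the 48 genes were in this group. DLGAP5, a spindle protein that stabilises kinetochore fibres, read 868, 1020.1 and 947 in the HL-60 shBCAT1 arrays against 655, 683 and 547 with shNT. In MOLM13, DLGAP5 read 337, 323 and 347 with shBCAT1 and 446, 454 and 482 with shNT. SKM1 gave DLGAP5 values of 652, 678 and 628 with shBCAT1 and 590.2, 631 and 580.3 with shNT. For DLGAP5 the shBCAT1 arrays lay above all shNT arrays in HL-60, lay below all of them in MOLM13 and overlapped them in SKM1. DLGAP5, on the log2 scale, rose by 0.59 in HL-60 (SE 0.09, adjusted p = 1.6e-05) and fell by 0.46 in MOLM13 (SE 0.09, adjusted p = 0.000311). The DLGAP5 gap between these responses, MOLM13 minus HL-60, was -1.05 (adjusted p = 2.38e-06). HMMR, a hyaluronan receptor that also works at spindle poles, had intensities of 1211, 1138 and 1049 with shBCAT1 and 769, 804 and 734 with shNT in HL-60. MOLM13 arrays gave HMMR values of 541, 647 and 635 with shBCAT1 and 827, 1032 and 885 with shNT. In SKM1 cells HMMR read 2279.6, 2612 and 2264 with shBCAT1 and 1957, 2173 and 2435 with shNT. For HMMR the shBCAT1 arrays lay above all shNT arrays in HL-60, lay below all of them in MOLM13 and overlapped them in SKM1. HMMR rose by 0.56 in HL-60 (SE 0.10, adjusted p = 0.000210) and fell by 0.59 in MOLM13 (SE 0.10, adjusted p = 0.000105) on the log2 scale, and the MOLM13 response minus that of HL-60 was -1.14 (adjusted p = 4.79e-06). CKAP2 is a microtubule-stabilising protein of the spindle. Its probe read 413, 439 and 363 with shBCAT1 and 331, 319 and 309.8 with shNT in HL-60. The CKAP2 values of MOLM13 were 574, 529 and 503 with shBCAT1 and 520.3, 468 and 441 with shNT. For SKM1, CKAP2 stood at 603, 699 and 665 with shBCAT1 and 574, 567 and 561 with shNT. For CKAP2 the shBCAT1 arrays lay above all shNT arrays in HL-60 and SKM1 and overlapped them in MOLM13. CKAP2 rose by 0.34 in HL-60 (SE 0.09, adjusted p = 0.00618) on the log2 scale. In MOLM13 CKAP2 had a difference of 0.17 (SE 0.09, adjusted p = 0.191). For CKAP2, MOLM13 minus HL-60 was -0.17 as a difference of log2 responses (adjusted p = 0.419). CKAP2 was the 1 gene of the 48 with a MOLM13 difference above 0. Its HL-60 rise was lost when the mean of its probes replaced the brightest probe (adjusted p = 0.065). NUSAP1, which bundles microtubules near chromatin, rose by 0.37 on the log2 scale in HL-60 (adjusted p = 0.000911) and fell by 0.52 in MOLM13 (adjusted p = 1.63e-05). SPAG5, astrin, rose by 0.36 (adjusted p = 0.00316) and fell by 0.62 (adjusted p = 6.49e-06). TPX2, which activates AURKA on the spindle, had 0.12 in HL-60 (adjusted p = 0.468) and fell by 0.83 in MOLM13 (adjusted p = 8.38e-07). ASPM, a protein of the spindle poles, had 0.20 in HL-60 (adjusted p = 0.254) and fell by 0.74 in MOLM13 (adjusted p = 3.31e-05).

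The mitotic kinesins were the largest group, with 4 rises in HL-60, 10 falls in MOLM13 and 10 lower responses in MOLM13 than in HL-60 among 11 genes. KIFC1, a minus-end-directed motor that focuses spindle poles, read 2456, 2324 and 2386 in the HL-60 shBCAT1 arrays against 1854, 1619.9 and 1551 with shNT. In MOLM13, KIFC1 read 785, 848 and 706 with shBCAT1 and 1133, 1693 and 1504 with shNT. SKM1 gave KIFC1 values of 2072, 2292 and 2075 with shBCAT1 and 1985, 1989 and 1914 with shNT. For KIFC1 the shBCAT1 arrays lay above all shNT arrays in HL-60 and SKM1 and lay below all of them in MOLM13. KIFC1, on the log2 scale, rose by 0.52 in HL-60 (SE 0.11, adjusted p = 0.00118) and fell by 0.87 in MOLM13 (SE 0.11, adjusted p = 2.22e-06). The KIFC1 gap between these responses, MOLM13 minus HL-60, was -1.39 (adjusted p = 1.51e-06). KIFC1 had the largest difference between the 2 lines of all 48 genes. KIF20A, the motor that carries passenger and polo-like proteins to the midzone, had intensities of 828, 779 and 813 with shBCAT1 and 644, 555 and 549.7 with shNT in HL-60. MOLM13 arrays gave KIF20A values of 535, 538 and 543 with shBCAT1 and 784, 821 and 835 with shNT. In SKM1 cells KIF20A read 1241, 1342 and 1328 with shBCAT1 and 1055, 1209 and 1185 with shNT. For KIF20A the shBCAT1 arrays lay above all shNT arrays in HL-60 and SKM1 and lay below all of them in MOLM13. KIF20A rose by 0.47 in HL-60 (SE 0.08, adjusted p = 8.84e-05) and fell by 0.59 in MOLM13 (SE 0.08, adjusted p = 4.55e-06) on the log2 scale, and the MOLM13 response minus that of HL-60 was -1.07 (adjusted p = 6.26e-07). KIF11 is the plus-end-directed motor Eg5, which pushes spindle poles apart. Its probe read 754, 781 and 781 with shBCAT1 and 613, 730.1 and 712 with shNT in HL-60. The KIF11 values of MOLM13 were 218, 307 and 256 with shBCAT1 and 459, 668 and 538 with shNT. For SKM1, KIF11 stood at 709.5, 697 and 662 with shBCAT1 and 859.8, 826 and 803 with shNT. For KIF11 the shBCAT1 arrays lay above all shNT arrays in HL-60 and lay below all of them in MOLM13 and SKM1. KIF11 had a difference of 0.18 in HL-60 (SE 0.12, adjusted p = 0.344) on the log2 scale. In MOLM13 KIF11 fell by 1.09 (SE 0.12, adjusted p = 2.42e-07). KIF11 gave -0.27 in SKM1 (adjusted p = 0.169). For KIF11, MOLM13 minus HL-60 was -1.26 as a difference of log2 responses (adjusted p = 8.94e-06). The KIF11 fall in MOLM13 was 2.13-fold, the largest of the 48 genes.

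The next 3 motors act on chromosomes and at the midzone. KIF2C, a depolymerising kinesin that corrects wrong attachments, read 1124, 878 and 1120.0 in the HL-60 shBCAT1 arrays against 978, 1037 and 965 with shNT. In MOLM13, KIF2C read 267, 295 and 312 with shBCAT1 and 477, 664 and 652 with shNT. SKM1 gave KIF2C values of 935, 1064 and 1065 with shBCAT1 and 1121, 1173 and 1143 with shNT. For KIF2C the shBCAT1 arrays lay below all shNT arrays in MOLM13 and SKM1 and overlapped them in HL-60. KIF2C, on the log2 scale, had a difference of 0.06 in HL-60 (SE 0.11, adjusted p = 0.790) and fell by 1.02 in MOLM13 (SE 0.11, adjusted p = 3.33e-07). KIF2C gave -0.17 in SKM1 (adjusted p = 0.458). The KIF2C gap between these responses, MOLM13 minus HL-60, was -1.08 (adjusted p = 3.81e-05). KIF4A, a motor of the chromosome arms and the midzone, had intensities of 218, 253 and 219 with shBCAT1 and 223, 229 and 238 with shNT in HL-60. MOLM13 arrays gave KIF4A values of 159, 142 and 143 with shBCAT1 and 199, 194 and 217 with shNT. In SKM1 cells KIF4A read 499, 524 and 569 with shBCAT1 and 486, 498 and 497 with shNT. For KIF4A the shBCAT1 arrays lay above all shNT arrays in SKM1, lay below all of them in MOLM13 and overlapped them in HL-60. KIF4A had a difference of -0.00 in HL-60 (SE 0.08, adjusted p = 0.999) and fell by 0.46 in MOLM13 (SE 0.08, adjusted p = 0.000169) on the log2 scale, and the MOLM13 response minus that of HL-60 was -0.46 (adjusted p = 0.00768). KIF23 is a subunit of centralspindlin, which builds the midzone. Its probe read 451, 390.3 and 386 with shBCAT1 and 302, 312 and 357 with shNT in HL-60. The KIF23 values of MOLM13 were 199, 229 and 199.6 with shBCAT1 and 236, 284 and 262 with shNT. For SKM1, KIF23 stood at 684, 825 and 767 with shBCAT1 and 553, 562 and 534 with shNT. For KIF23 the shBCAT1 arrays lay above all shNT arrays in HL-60 and SKM1 and lay below all of them in MOLM13. KIF23 rose by 0.34 in HL-60 (SE 0.09, adjusted p = 0.0124) on the log2 scale. In MOLM13 KIF23 fell by 0.32 (SE 0.09, adjusted p = 0.0173). KIF23 gave 0.46 in SKM1 (adjusted p = 0.00149). For KIF23, MOLM13 minus HL-60 was -0.65 as a difference of log2 responses (adjusted p = 0.00137). The KIF23 rise in HL-60 was lost without HL-60 shBCAT1 replicate 1 (adjusted p = 0.0843) or shNT replicate 1 (adjusted p = 0.0602). The KIF23 fall in MOLM13 was lost without MOLM13 shBCAT1 replicate 1 or 3 (adjusted p = 0.0737 and 0.0672) or shNT replicate 2 (adjusted p = 0.112).

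KIF14, a motor of cytokinesis, rose by 0.34 on the log2 scale in HL-60 (adjusted p = 0.0424) and fell by 0.61 in MOLM13 (adjusted p = 0.000454). Its rise in HL-60 was lost without HL-60 shBCAT1 replicate 1 or 3 (adjusted p = 0.0869 and 0.216) or shNT replicate 1 or 3 (adjusted p = 0.0907 and 0.215), and with array weights (adjusted p = 0.0917), with the line fitted alone (adjusted p = 0.0897) or with normexp (adjusted p = 0.0518). KIF15, KIF18A and KIF20B fell by 0.59, 0.37 and 0.61 in MOLM13, with adjusted p of 0.000747, 0.0476 and 4.05e-05, and none of the 3 passed in HL-60. The other settings in which KIF18A did pass in HL-60 are given above. The KIF18A fall was lost without MOLM13 shBCAT1 replicate 1 or 2 (adjusted p = 0.306 and 0.180) or shNT replicate 2 or 3 (adjusted p = 0.124 and 0.202). It was also lost with the line fitted alone (adjusted p = 0.172) or without the filter on dim genes (adjusted p = 0.0567), and in the fit on the mean of all probes of each gene (adjusted p = 0.0547). In that last fit only 1 KIF18A probe passed the filter, so its difference was unchanged. KIF22, a motor that moves chromosome arms outward, passed in neither line, with 0.12 in HL-60 (adjusted p = 0.486) and -0.26 in MOLM13 (adjusted p = 0.0770). With array weights KIF22 passed in MOLM13 (adjusted p = 0.0126).

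All 3 midzone and cytokinesis genes rose in HL-60, 2 fell in MOLM13, and all 3 had a lower response in MOLM13 than in HL-60. PRC1, the protein that bundles the overlapping microtubules of the midzone, read 1798, 1629 and 1847 in the HL-60 shBCAT1 arrays against 1442, 1362 and 1369 with shNT. In MOLM13, PRC1 read 769.6, 797 and 713 with shBCAT1 and 1233, 1510.4 and 1387 with shNT. SKM1 gave PRC1 values of 2132, 2357 and 2491 with shBCAT1 and 2606, 2393 and 2697 with shNT. For PRC1 the shBCAT1 arrays lay above all shNT arrays in HL-60, lay below all of them in MOLM13 and overlapped them in SKM1. PRC1, on the log2 scale, rose by 0.34 in HL-60 (SE 0.09, adjusted p = 0.00690) and fell by 0.85 in MOLM13 (SE 0.09, adjusted p = 1.41e-07). The PRC1 gap between these responses, MOLM13 minus HL-60, was -1.19 (adjusted p = 5.8e-07). ANLN, anillin, the scaffold of the contractile ring, had intensities of 306, 279 and 336 with shBCAT1 and 252, 251 and 242 with shNT in HL-60. MOLM13 arrays gave ANLN values of 133, 159 and 154 with shBCAT1 and 208, 261 and 276 with shNT. In SKM1 cells ANLN read 304, 314 and 343 with shBCAT1 and 363, 337 and 383 with shNT. For ANLN the shBCAT1 arrays lay above all shNT arrays in HL-60, lay below all of them in MOLM13 and overlapped them in SKM1. ANLN rose by 0.30 in HL-60 (SE 0.10, adjusted p = 0.0362) and fell by 0.73 in MOLM13 (SE 0.10, adjusted p = 7.11e-06) on the log2 scale, and the MOLM13 response minus that of HL-60 was -1.03 (adjusted p = 1.84e-05). ANLN gave -0.17 in SKM1 (adjusted p = 0.373). The ANLN rise in HL-60 was lost without HL-60 shBCAT1 replicate 1 or 3 (adjusted p = 0.0800 and 0.162) or shNT replicate 1, 2 or 3 (adjusted p = 0.0611, 0.0705 and 0.103), and with the line fitted alone (adjusted p = 0.0524). ECT2, the exchange factor that activates RhoA at the cleavage site, rose by 0.42 on the log2 scale in HL-60 (adjusted p = 0.00576) and had -0.21 in MOLM13 (adjusted p = 0.191). With array weights ECT2 passed in MOLM13 (adjusted p = 0.0375). Its responses differed between these lines by -0.62 (adjusted p = 0.00541).

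The last 3 genes were the chromosome genes TOP2A and MKI67 and the transcription factor FOXM1. All 3 fell in MOLM13, and MKI67 and FOXM1 rose in HL-60. FOXM1 is a transcription factor that activates many of the other genes in G2. Its probe read 679, 645 and 669 with shBCAT1 and 529, 533 and 525 with shNT in HL-60. The FOXM1 values of MOLM13 were 184, 196 and 207 with shBCAT1 and 315, 358 and 373 with shNT. For SKM1, FOXM1 stood at 327, 383 and 342 with shBCAT1 and 295, 259 and 301 with shNT. For FOXM1 the shBCAT1 arrays lay above all shNT arrays in HL-60 and SKM1 and lay below all of them in MOLM13. FOXM1 rose by 0.33 in HL-60 (SE 0.08, adjusted p = 0.00638) on the log2 scale. In MOLM13 FOXM1 fell by 0.83 (SE 0.08, adjusted p = 1.37e-07). FOXM1 gave 0.30 in SKM1 (adjusted p = 0.0213). For FOXM1, MOLM13 minus HL-60 was -1.16 as a difference of log2 responses (adjusted p = 5.8e-07). The SKM1 rise of FOXM1 was lost on leaving out SKM1 shBCAT1 replicate 2 (adjusted p = 0.145) or shNT replicate 2 (adjusted p = 0.155), and with the mean of its probes (adjusted p = 0.122). MKI67, Ki-67, the coat of mitotic chromosomes and a common marker of cycling cells, read 614, 461 and 538 in the HL-60 shBCAT1 arrays against 421, 328 and 388 with shNT. In MOLM13, MKI67 read 101, 146 and 122 with shBCAT1 and 150.1, 182 and 175 with shNT. SKM1 gave MKI67 values of 217, 226 and 231 with shBCAT1 and 218, 207 and 197 with shNT. For MKI67 the shBCAT1 arrays lay above all shNT arrays in HL-60, lay below all of them in MOLM13 and overlapped them in SKM1. MKI67, on the log2 scale, rose by 0.50 in HL-60 (SE 0.12, adjusted p = 0.00369) and fell by 0.47 in MOLM13 (SE 0.12, adjusted p = 0.00551). The MKI67 gap between these responses, MOLM13 minus HL-60, was -0.97 (adjusted p = 0.000290). The MKI67 fall in MOLM13 was lost without MOLM13 shBCAT1 replicate 1 (adjusted p = 0.0581). TOP2A, topoisomerase II alpha, which untangles sister chromatids, had intensities of 2577, 2823 and 2446 with shBCAT1 and 2594, 3189.6 and 2358 with shNT in HL-60. MOLM13 arrays gave TOP2A values of 1178, 1235 and 1558 with shBCAT1 and 1682, 2264 and 2467 with shNT. In SKM1 cells TOP2A read 3658, 3775 and 4084 with shBCAT1 and 4013, 4238 and 4309 with shNT. For TOP2A the shBCAT1 arrays lay below all shNT arrays in MOLM13 and overlapped them in HL-60 and SKM1. TOP2A had a difference of -0.04 in HL-60 (SE 0.13, adjusted p = 0.868) and fell by 0.68 in MOLM13 (SE 0.13, adjusted p = 0.000259) on the log2 scale, and the MOLM13 response minus that of HL-60 was -0.64 (adjusted p = 0.0160). The TOP2A difference between the lines was lost without HL-60 shNT replicate 3 (adjusted p = 0.0529) or MOLM13 shNT replicate 3 (adjusted p = 0.0547). 

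**Figure D4:**
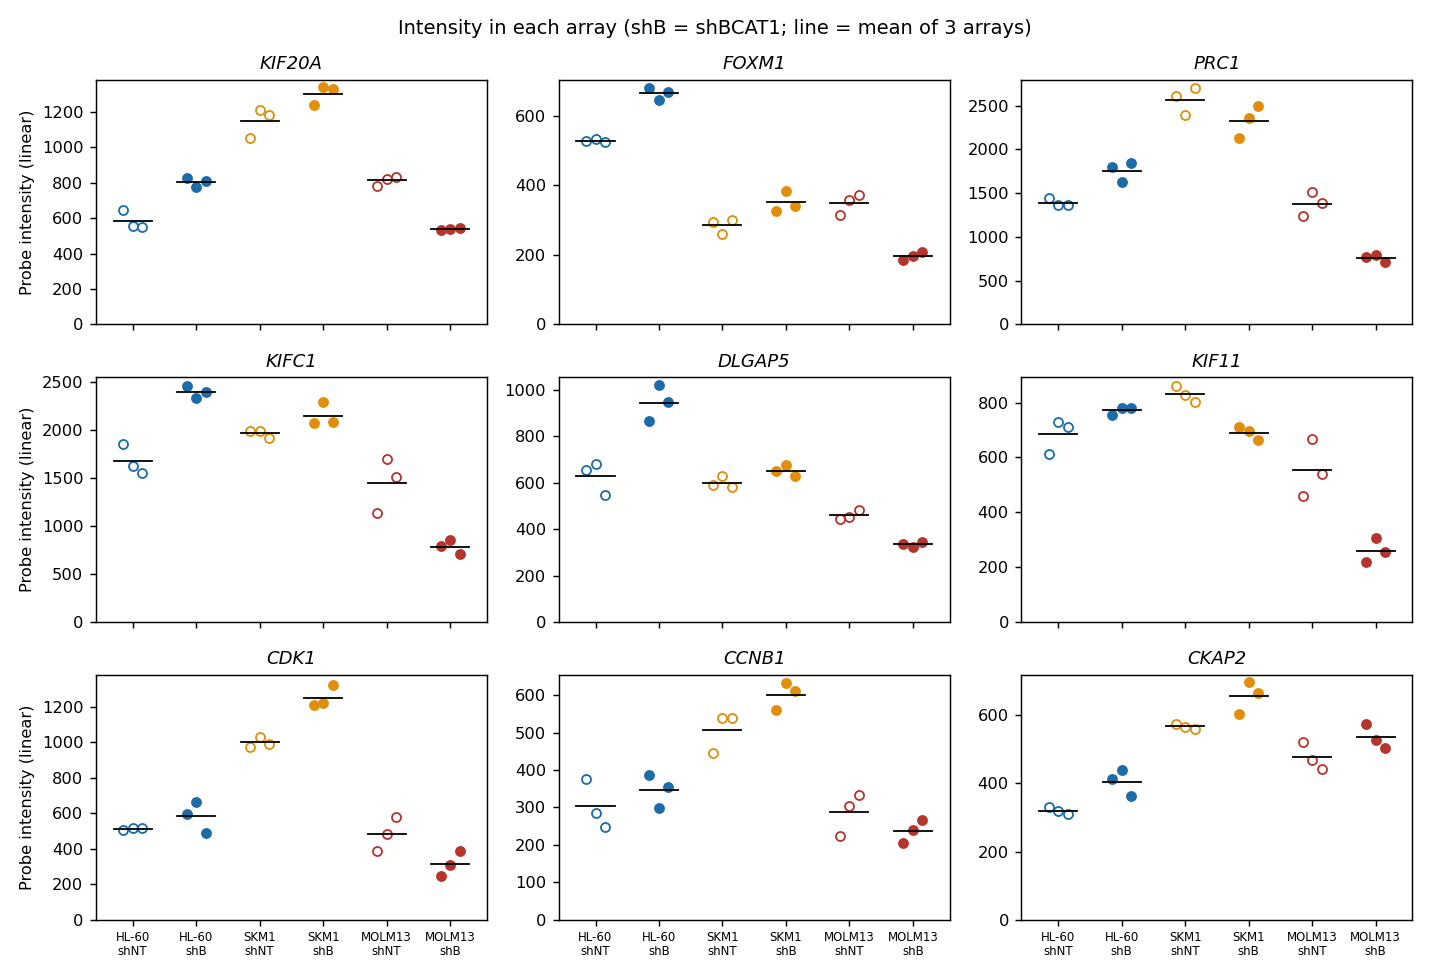
Probe intensity (linear vertical axis, from 0) of 9 of the mitotic genes in every array, by line and hairpin. Open points are shNT arrays, filled points shBCAT1 arrays and lines the mean of 3 arrays; in MOLM13 the filled points lie below the open ones for KIF20A, FOXM1, PRC1, KIFC1, DLGAP5, KIF11 and CDK1, and the groups overlap for CCNB1 and CKAP2.

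In SKM1 few of the 48 genes passed, as did a small share of all genes tested, so the count says little about these genes. KIF23 and FOXM1 were higher and 0 genes lower at an adjusted p under 0.05, against 4.67% higher and 6.5% lower among all genes. The median log2 difference was 0.10, with a range of -0.30 to 0.46, and 35 of the 48 were above 0. Every shBCAT1 array lay above every shNT array in 12 genes and below in 6, against 15.9% and 17.4% of all genes. Those below included PLK1, CDC25B, KIF11 and KIF2C, none of which passed the test. The number that passed in SKM1 rested on the fit, and the share of all genes rose with it. It was 5 higher and 2 lower with replicate blocks in every line (5.51% and 7.36% of all genes), 5 and 1 with a block in MOLM13 alone (5.4% and 7.25%), 6 and 3 with array weights (8.97% and 11.3%), and 7 and 3 with SKM1 fitted alone (8.69% and 11%).

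Set against HL-60, the SKM1 response was lower in 4 of the 48 genes and higher in 0, against 4.34% lower and 2.07% higher among all genes. The 4 were PLK1 at -0.49 (adjusted p = 0.0195), PRC1 at -0.48 (adjusted p = 0.0180), DLGAP5 at -0.47 (adjusted p = 0.0174) and ANLN at -0.47 (adjusted p = 0.0467) on the log2 scale. That count was 8 with a replicate block in MOLM13 alone and ranged from 1 to 6 on leaving out 1 array, with 2 without HL-60 shBCAT1 replicate 1 or 3, SKM1 shBCAT1 replicate 1 or SKM1 shNT replicate 2, and 1 without HL-60 shNT replicate 3 or SKM1 shNT replicate 3. The MOLM13 response was lower than the SKM1 response in 37 genes and higher in 0, against 4.76% lower and 5.36% higher among all genes, with a median of -0.67. The 37 include UBE2C, whose SKM1 intensities lay near the median of all probes (92.1) and so could show little response. These comparisons share the arrays of the line that stands in both.

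With the control hairpin the lines already differed in the 48 genes. Against HL-60, MOLM13 was lower in 31 and higher in 2 (KIF20A and CKAP2), with a median log2 difference of -0.33, against 24.8% lower and 19.5% higher among all genes. The largest gaps were in CENPF (-1.28), MKI67 (-1.16), CDC20 (-1.09) and BIRC5 (-1.05). CKAP2 was 0.57 and KIF20A 0.48 higher in MOLM13. Against HL-60, SKM1 was higher in 20 genes and lower in 9, with a median of 0.19, against 24.6% higher and 24.1% lower among all genes. HMMR was 2.83-fold, KIF4A 2.15-fold and KIF20A 1.97-fold higher in SKM1, the largest gaps upward. UBE2C read 3544 ± 96 (SD, n = 3) in HL-60 and 96.2 ± 6.86 in SKM1. The SKM1 intensity lay near the median of all probes, so that the size of a gap in RNA cannot be read from it. The dimmer UBE2C probe read 86.7 in SKM1 and 129.5 in HL-60 with shNT. Whether these probes read UBE2C RNA equally well in both lines was not tested. All MOLM13 arrays lay below all HL-60 arrays in 28 genes and above in 3, against 27.5% and 21.1% of all genes, and all SKM1 arrays lay above in 23 and below in 11, against 27.5% and 28.3%. The control arrays of HL-60 and MOLM13 also enter the responses given above.

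Other probes of the same genes were compared with the brightest ones. Of the 48 genes, 19 had 21 further probes, 19 of which were bright enough to be fitted, in a fit over 31655 probes. In HL-60, 18 of the 19 were above 0, with 7 higher and 0 lower, against 6.07% higher and 5.84% lower among all probes fitted. In MOLM13, 18 of the 19 were below 0, with 10 lower and 0 higher, against 6.48% and 6.86%. The MOLM13 response was lower than the HL-60 response for 13 and higher for 0, against 4.65% and 4.35%. The exceptions to the signs were a dimmer CDC25C probe in HL-60 at -0.04 and a dimmer CKAP2 probe in MOLM13 at 0.04. The second UBE2C probe gave 0.08 in HL-60 and -0.29 in MOLM13, with neither passing.

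Other genes of cell division were read from lists that do not overlap the 48 genes. Their counts are to be read against all genes tested, of which 10% rose and 8.87% fell in HL-60 and 10.3% rose and 10.7% fell in MOLM13. Of 18 further genes that control mitotic entry, 5 rose and 2 fell in HL-60, and 0 rose and 13 fell in MOLM13, with medians of 0.12 in HL-60 and -0.59 in MOLM13 on the log2 scale. GTSE1, a regulator of G2 and microtubules, rose by 0.48 in HL-60 (adjusted p = 0.000392), while BORA, the activator of AURKA, fell by 0.53 there (adjusted p = 0.000344). CCNF, cyclin F, rose by 0.43 in HL-60 (adjusted p = 0.00281) and fell by 0.87 in MOLM13 (adjusted p = 6.83e-07). CDC25A, the third CDC25 phosphatase, fell by 1.06 in MOLM13 (adjusted p = 2.33e-09).

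Of 18 other genes of the passenger complex, midzone and cytokinesis, 6 rose and 0 fell in HL-60, and 0 rose and 15 fell in MOLM13. RACGAP1, the centralspindlin partner of KIF23, rose by 0.54 in HL-60 (adjusted p = 4.89e-05), and CDCA8, borealin of the passenger complex, fell by 0.86 in MOLM13 (adjusted p = 6.87e-07). Of 31 other kinetochore and centromere genes, 3 rose and 1 fell in HL-60, and 0 rose and 20 fell in MOLM13. The HL-60 median of that list was 0.01. SKA3, a kinetochore protein, fell by 0.64 in HL-60 (adjusted p = 0.000126), and HJURP, the chaperone of CENPA, fell by 1.25 in MOLM13 (adjusted p = 4.38e-08). Of 16 condensin and cohesin genes, 4 rose and 3 fell in HL-60, and 0 rose and 8 fell in MOLM13. The condensin subunit NCAPG rose by 0.57 in HL-60 (adjusted p = 0.00491) and fell by 1.07 in MOLM13 (adjusted p = 5.11e-06), whereas STAG2 of cohesin fell by 0.67 in HL-60 (adjusted p = 2.45e-05). Of 18 centriole and centrosome genes, 1 rose and 0 fell in HL-60, and 0 rose and 9 fell in MOLM13.

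Lists with partly related or contrasting roles gave other counts. Of 16 core subunits of the anaphase-promoting complex, 2 rose and 1 fell in HL-60, and 3 rose and 1 fell in MOLM13, and of 14 kinesins with transport roles, 3 rose and 0 fell in HL-60, and 1 rose and 1 fell in MOLM13. Of 16 DREAM, MuvB and MYBL2 regulators, 1 rose and 2 fell in HL-60, and 0 rose and 3 fell in MOLM13. These lists are small, and such counts say little beside the shares of all genes given above. E2F7, a repressor of the E2F family, rose by 0.63 in HL-60 (adjusted p = 2.72e-05) and fell by 0.36 in MOLM13 (adjusted p = 0.00698). Most genes of DNA synthesis fell in MOLM13 and most did not pass in HL-60. Of 34 E2F and DNA replication genes, 3 rose and 6 fell in HL-60, and 0 rose and 26 fell in MOLM13, and of 10 genes of the MCM helicase family, 0 rose and 4 fell in HL-60, and 0 rose and 7 fell in MOLM13. Their medians were -0.11 in HL-60 and -0.84 in MOLM13 for the replication genes, and -0.21 in HL-60 and -0.96 in MOLM13 for the MCM family. MCM2, a helicase subunit, fell by 0.44 in HL-60 (adjusted p = 0.00519) and by 1.66 in MOLM13 (adjusted p = 2.69e-10). No test compared these lists with the 48 genes.

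**Figure D5:**
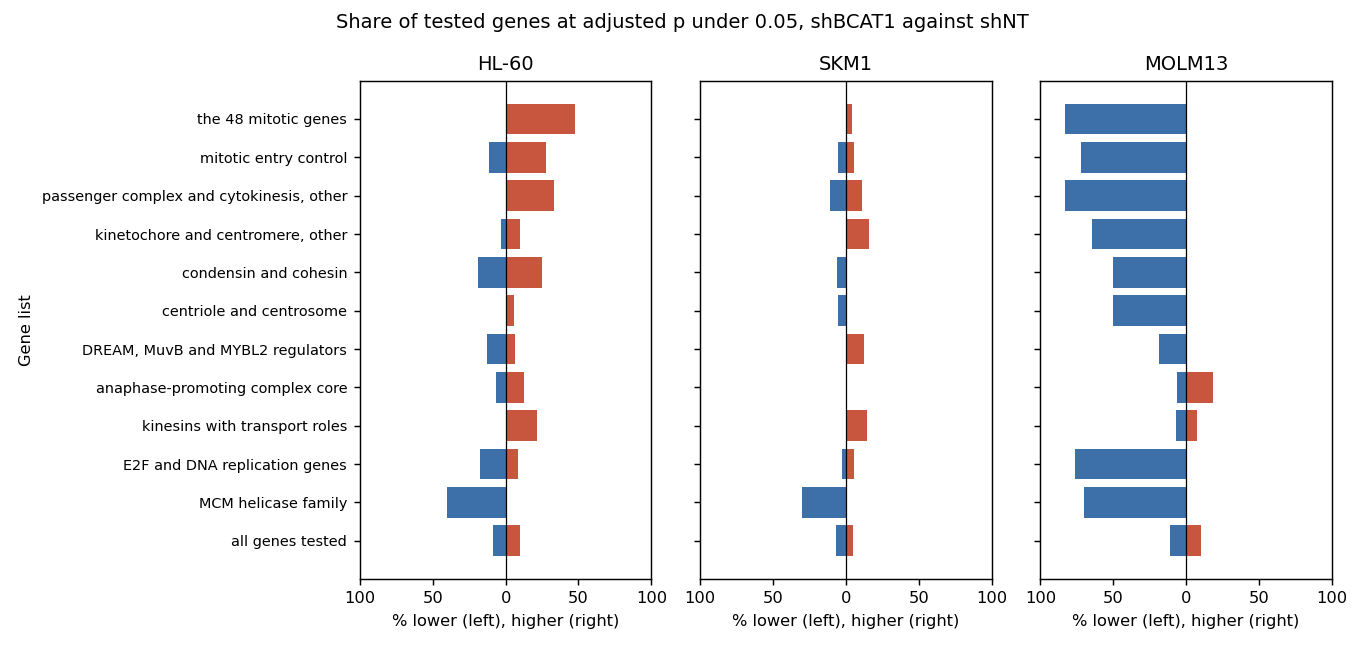
Share of tested genes in each list that passed at an adjusted p under 0.05 with shBCAT1 against shNT, in percent, lower to the left and higher to the right, in each line. The 48 mitotic genes reach right in HL-60 and left in MOLM13, the MCM and replication lists reach left in MOLM13, and the last bar gives all 15288 genes tested.

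The responses were also read by promoter motif. The 30 genes with the CHR letters in at least 1 promoter had a median MOLM13 minus HL-60 difference of -0.81, with 29 lower, and the 12 without had -0.98, with 9 lower. In HL-60 alone the medians were 0.29 and 0.28, and in MOLM13 alone -0.58 and -0.60. In MOLM13, 26 of the 30 genes with the CHR letters fell, and 8 of the 12 without. For CCAAT, 28 of 33 genes with it fell there, and 6 of 9 without. KIFC1, KIF11, PRC1, PLK1 and CCNB2, whose stretches are printed, fell too. As picked examples they say nothing about a link between motif and response. These medians and counts describe the genes and were not tested.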

How the data were processed

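RNA of 18 samples (200 ng of total RNA each, biotin label, Cy3-streptavidin stain, per the labels' protocols) was measured on 1-colour arrays. Values in the deposited table are linear probe intensities, already alike between arrays; the authors' normalization and software are not given in the sources used here, and no detection call was used. Probes with a missing value were left out (7 of 48107), and 30108 of the others had 1 gene symbol in the platform annotation; of all probes, 8 had several and 17986 none listed there. Each gene took its brightest probe, and genes whose brightest group exceeded the median of all values (92.1) were tested: 15288 of 20042.

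Log2 intensities were fitted with limma 3.58.1 in R 4.3.3, with 1 mean per group over all 18 arrays (12 residual and 10.8 prior degrees of freedom), and p-values were adjusted by Benjamini-Hochberg over all genes tested, at 0.05. The fit was tested on simulated data. The knockdown was contrasted with the control hairpin within each line, these responses were contrasted between lines, and so were the control arrays. Same-numbered replicates deviated together in MOLM13, with correlations of 0.277, 0.131 and 0.382, and those of HL-60 gave 0.163, 0.013 and 0.096 and those of SKM1 -0.097, -0.141 and 0.041. MOLM13 alone had every pair over 0.1, and blocks in every line, or, added after seeing the data, in MOLM13 alone, are alternatives. Other alternatives were quantile normalization, median scaling, normexp with an offset of 50, no filter, a filter 1.5 times stricter, the mean of all probes, array weights, each line alone, and leaving out each array. Values of every array were printed for the 5 genes whose MOLM13 and HL-60 responses differed with the smallest adjusted p, the 5 largest rises and falls of each line, and CDK1, CCNB1, PLK1, MKI67, TOP2A and FOXM1. In other lists, genes among the 3 with the smallest p in HL-60 or MOLM13 were eligible. Members and lists were chosen with earlier results of these data known. Promoters came from RefSeq (GRCh38.p14). Python 3.11.15 with matplotlib 3.10.9 drew the figures.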

Additional observations from a re-analysis of the deposited data

Results flagged for a closer look

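The response to shBCAT1 differed between lines by a test of the difference itself. The MOLM13 response was lower than the HL-60 response in 44 of the 48 genes and lower than the SKM1 response in 37 (with UBE2C, dim in SKM1, among them), the SKM1 response was lower than the HL-60 response in 4, and an F test over the 3 lines passed in 42. The values below are log2 responses in MOLM13 minus those in HL-60 for the 44 genes, and the adjusted p of the genes described in full stand with them above. Among cyclins, CDK1 and CDC25 phosphatases these were CCNA2 at -1.12, CCNB2 at -0.88, CDK1 at -0.80, CDC25B at -1.10 and CDC25C at -1.17. The mitotic kinases were PLK1 at -0.76, PLK4 at -0.99, AURKA at -0.91, AURKB at -0.99, TTK at -1.04, NEK2 at -0.70 and BUB1 at -1.06. Checkpoint and anaphase regulators gave MAD2L1 at -0.46, CDC20 at -0.77, UBE2C at -0.89 and PTTG1 at -0.74. For kinetochore and centromere genes the values were CENPA at -0.40, CENPE at -0.98, CENPF at -0.46, NUF2 at -0.50, NDC80 at -0.83 and BIRC5 at -0.92. Spindle-associated genes stood TPX2 at -0.95, HMMR at -1.14, DLGAP5 at -1.05, NUSAP1 at -0.89, SPAG5 at -0.98 and ASPM at -0.94. The kinesins stood KIF2C at -1.08, KIF4A at -0.46, KIF11 at -1.26, KIF14 at -0.95, KIF15 at -0.69, KIF18A at -0.68, KIF20A at -1.07, KIF20B at -0.79, KIF23 at -0.65 and KIFC1 at -1.39. Midzone and cytokinesis genes gave PRC1 at -1.19, ECT2 at -0.62 and ANLN at -1.03. The last group had TOP2A at -0.64, MKI67 at -0.97 and FOXM1 at -1.16. The SKM1 response minus the HL-60 response was PLK1 -0.49, DLGAP5 -0.47, PRC1 -0.48 and ANLN -0.47 on the log2 scale. Line, serum and the level with the control hairpin changed together between HL-60 and MOLM13, so that their parts cannot be told apart there. SKM1 and MOLM13 had the same serum.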

How the results depend on the processing

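The counts were recomputed under 10 other settings and with each of the 18 arrays left out in turn. No result changed direction. The median over the 48 genes stayed between 0.23 and 0.32 in HL-60, between -0.67 and -0.52 in MOLM13 and between -0.98 and -0.81 for the difference of these responses, and the scalings moved the median of all genes to no further than -0.04. Of the calls, 13 of 23 in HL-60, 36 of 40 in MOLM13 and 39 of 44 in the difference were made under every alternative that gave a value for them (16 for a line, 21 for the difference). In SKM1, 1 of the 2 calls was made under every alternative. The SKM1 counts moved most: 1 gene was lower with a stricter filter on dim genes, 6 higher and 3 lower with array weights, and 7 higher and 3 lower with the line fitted alone. With a replicate block within each line, 5 were higher and 2 lower in SKM1. The SKM1 response was lower than the HL-60 response in 7 genes with array weights and in 9 with the replicate block, whose other counts were 25 higher in HL-60, 42 lower in MOLM13 and 45 lower for the difference of MOLM13 and HL-60; outside MOLM13 the samples share only a number. With a replicate block in MOLM13 alone, added after seeing the data, 41 were lower in MOLM13 and 44 for that difference, 25 higher in HL-60, 5 higher and 1 lower in SKM1, and 8 for SKM1 against HL-60. On leaving out 1 array the count was 16 to 23 higher in HL-60, 36 to 44 lower in MOLM13, 40 to 46 for the difference between these lines, 31 to 41 for MOLM13 against SKM1, 39 to 44 for the F test, 1 to 2 higher in SKM1 and 1 to 6 for SKM1 against HL-60. For the control hairpin it was 22 to 32 lower and 2 to 3 higher in MOLM13 against HL-60, with 22 without MOLM13 shNT replicate 1, and 17 to 21 higher and 6 to 9 lower in SKM1 against HL-60. The cause of these changes was not tested. If background remains in the intensities, which start at 60.4, changes of dim genes are understated.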
